A study of Rattus norvegicus with 8 samples.

Results

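The 46-day growth plate was compared with the 42-day growth plate of the rat femur, zone by zone. The arrays were chosen by the age in their titles: 4 arrays carry 46 days and 4 carry 42 days, which is all 8 arrays of the series. Each age has 1 array of the perichondral, the reserve, the proliferative and the hypertrophic zone. Every array received RNA pooled from 3 rats (Rattus norvegicus), which was purified with an RNeasy kit, amplified by Ovation chemistry, biotin-labelled and hybridised to an Affymetrix rat array. The labels give no strain, sex, genotype or treatment for either age, and age is the only named difference between the groups.

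The design limits what the age comparison can measure. The submitters' design text counts the ages as replicates of a zone, so no zone has a second array of the same age, and an age is replicated only across zones (n = 4 arrays an age). The sources used here do not say if the zones of one age were taken from one set of rats. If they were, age and the set of rats cannot be told apart, and the p-values measure only the spread between these arrays. They do not say by which method the zones were parted either. In bulk RNA of this kind, fewer cells of a type and less RNA per cell cannot be told apart.

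The growth plate is the cartilage through which a long bone lengthens. Resting chondrocytes of the reserve zone give rise to columns of dividing cells in the proliferative zone, and these enlarge in the hypertrophic zone, where the matrix mineralises and is replaced by bone. Chondrocytes surround themselves with fibrils of collagens II, IX and XI and with the sulphated proteoglycan aggrecan. Growth slows as the animal ages, and a group of growth-promoting genes, several of them imprinted, is known to decline in many organs of juvenile mammals. Ihh and PTHrP, the IGF, FGF, BMP and Wnt families, thyroid hormone and sex steroids are the best known signals that set the pace of the plate.

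The deposited values are array intensities on a linear scale, and all levels below are log2(intensity + 16) after quantile normalization. A difference is always 46 days minus 42 days on that scale, so a negative value means a lower level at 46 days, and the scale understates the difference of dim genes. The number of arrays limits the precision. The median deposited intensity was higher at 46 days in all 4 zones, at 319.9 against 287.4 in the hypertrophic, 308.1 against 268.6 in the perichondral, 348.9 against 272.9 in the proliferative and 283.2 against 226.6 in the reserve zone. The ratio of 3' to 5' signal over the control probe sets for Gapdh, which grows as RNA is shortened, was lower at 46 days in all 4 zones. It was 4.30 and 3.63 in the hypertrophic, 4.47 and 3.78 in the perichondral, 7.10 and 5.39 in the proliferative and 8.15 and 3.96 in the reserve zone at 42 and 46 days. The mean difference of its log2 was -0.48 ± 0.38 (SD, n = 4 pairs), with an exact two-sided sign-flip permutation p of 0.125, the smallest that 4 pairs allow.

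No array resembled most the other array of its own zone. Among the 3472 genes whose mean was above the other-organ level, the correlation between the ages of a zone was 0.759 in reserve, 0.757 in perichondral, 0.577 in proliferative and 0.498 in hypertrophic arrays. Each of the 8 arrays correlated more with some array of another zone. These values were 0.688 for the 42-day hypertrophic with the 46-day reserve array, 0.761 for the 42-day proliferative with the 46-day perichondral array and 0.685 for the hypertrophic with the proliferative array at 46 days. The perichondral and reserve arrays correlated with each other at 0.776 at 42 days and 0.767 at 46 days. The other-organ level, 9.21, is the 0.95 quantile of all values of genes typical of other organs, and serves here as a yardstick of background. Genes are not independent replicates, so these values only describe the arrays. List medians are therefore given with a zone's pair of arrays left out where that moves them, and genes whose mean it moves are gathered near the end.

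Col2a1, the main collagen of cartilage and the marker that defines this tissue, was bright on every array. It read 17.13, 17.80, 17.40 and 17.58 at 42 days and 15.86, 17.58, 17.21 and 17.40 at 46 days in the hypertrophic, perichondral, proliferative and reserve zones, an order of zones kept throughout. Col10a1, the collagen of hypertrophic cartilage, was highest in the hypertrophic array at both ages (16.93, 13.66, 12.62 and 11.78, then 15.26, 13.78, 10.94 and 10.88). Other hypertrophic genes did not all share this order. Mmp13 was highest on the reserve array at both ages (14.75 and 14.73, against 14.73 and 14.09 on the hypertrophic arrays). Ibsp was highest on the hypertrophic array at 42 days (15.66) but on the reserve array at 46 days (14.33, against 12.47). The log2 of summed intensity of the hypertrophic list was 17.9 and 16.4 in the hypertrophic and reserve zones at 42 days, then 16.3 and 16.4. Sox9, Runx2 and Pthlh had no probe set with a single gene name and are not analysed here.

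No probe set passed the threshold of the age comparison. With limma, zone as a block and an adjusted p below 0.05, 0% of 31042 probe sets were higher and 0% were lower at 46 days. At an unadjusted p under 0.05 there were 2616 probe sets, 1255 higher and 1361 lower, where chance would give 1552. The smallest adjusted p was 0.0693, shared by 7 probe sets, and all 7 were lower at 46 days. They belong to Mgp, Fmod, Pgk1, Nfat5, Cyp20a1, Gpr108 and Cops9. At an adjusted p below 0.1 there were 15 lower and 2 higher probe sets. As no gene passed, the genes and groups below are given by their values, and their direction is that of these arrays.

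Across the 14217 genes with 1 probe set each, the median difference was -0.06 and the median SE was 0.71. The median over all probe sets was 0.03, against 0.16 with the deposited values as they stand and -0.08 with each array centred on its median, and changes are read relative to it. The balance of the directions depended on the scaling: 2663 probe sets were higher and 2398 lower in all 4 zones, against 3475 and 1876 with the deposited values and 1907 and 3184 with median-centred arrays. The count of calls did too, with 137 probe sets lower and 3 higher when arrays were median-centred, and 43 lower and 2 higher with the deposited values. Without the reserve pair 22 were lower and 1 was higher, and without the perichondral pair 4 were lower. Of all genes, 53.5% had a lower mean at 46 days, 9.28% were lower in all 4 zones and 7.32% were higher in all 4 zones. The 2 ages did not overlap in 1.84% of genes that were lower and 1.51% that were higher. An unadjusted p under 0.05 was reached by 6.02% of genes as lower and 2.96% as higher. These shares of all genes are the background for the list counts below. Among genes above the other-organ level 52.4% had a lower mean, 12% were lower in all 4 zones and 9.94% were higher in all 4. Among the 105 genes with a mean level above 13 the median difference was -0.20, with 15.2% lower and 19% higher in all 4 zones.

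Structural genes of cartilage were lower at 46 days. All 20 measured genes of the cartilage matrix list had a lower mean and 12 of them were lower in all 4 zones. Of all genes these shares were 53.5% and 9.28%. This list, like the others, was chosen with earlier results of these data known, so its counts are a description. The median difference of the list was -1.10. Of the 20 genes 10 were lower with an unadjusted p under 0.05, beside 6.02% of all genes. None passed the threshold over all probe sets. The median was -1.28 in the hypertrophic, -0.86 in the perichondral, -0.68 in the proliferative and -1.77 in the reserve zone. The list stayed lower with the deposited values as they stand (-1.21) and with median-centred arrays (-1.46). With a pair of arrays left out its median ran from -1.26 to -0.78, and it was -1.03 without the hypertrophic pair. With the log2 Gapdh ratio as a covariate it was -0.61, with 16 of 20 genes lower.

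Mgp, the matrix Gla protein that holds back mineralisation of cartilage, had the largest difference in the list. It read 9.99, 14.44, 12.30 and 15.41 at 42 days and 7.77, 13.22, 8.07 and 12.19 at 46 days. Each zone was lower at 46 days, while the ages overlap because the perichondral and reserve zones hold far more Mgp than the hypertrophic zone. The mean went from 13.04 ± 2.41 (SD, n = 4) to 10.31 ± 2.80, a 6.61-fold lower level (difference -2.72, SE 0.42, adjusted p = 0.0693 with limma).

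Fmod, fibromodulin, is a small proteoglycan that binds collagen fibrils. It read 8.55, 13.38, 10.75 and 14.13 at 42 days and 6.24, 11.28, 8.57 and 11.86 at 46 days. The 4 zones differed by nearly the same amount, between -2.31 and -2.10, although their levels span a wide range. The mean difference was -2.22 (SE 0.37, 4.64-fold lower, adjusted p = 0.0693 with limma). With the Gapdh covariate Fmod was at -2.17 and Mgp at -2.02. Some other genes of the list came closer to 0, with Acan at -0.48, Col11a2 at -0.30, Chad at -0.27 and Ucma at -0.06. Others moved further from 0, with Col9a1 at -2.05, Col9a3 at -1.55, Col2a1 at -0.77 and Hapln1 at -0.63.

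Collagen IX and XI genes, whose proteins coat and nucleate the collagen II fibril, were lower in nearly every pair. Col9a1 read 12.84, 15.43, 15.21 and 15.97 at 42 days and 10.02, 13.85, 14.12 and 14.39 at 46 days, lower in all 4 zones (-1.77, SE 0.37, adjusted p = 0.118). Col9a3 (-1.17, SE 0.49), Col11a1 (-1.05, SE 0.40) and Col11a2 (-1.52, SE 0.44) were lower in all 4 zones too, with adjusted p from 0.332 to 0.541. Both further Col11a1 probe sets had the same sign, at -1.55 and -0.97. The ages did not overlap for Col11a1, with 42-day levels from 15.30 to 16.30 and 46-day levels from 14.11 to 15.26. Col9a2, named after its values were seen, was lower in 3 zones and higher in the proliferative zone (mean -0.74, SE 0.41).

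Acan, the core protein of aggrecan, read 12.19, 12.73, 13.08 and 14.12 at 42 days and 10.66, 12.08, 12.69 and 12.03 at 46 days. It was lower in all 4 zones, with the largest gap in the reserve zone (mean -1.17, SE 0.36, adjusted p = 0.407). Comp, which links matrix proteins, was also lower in all 4 zones (-0.93, SE 0.39), as were Snorc (-1.75, SE 0.55), a small membrane proteoglycan of cartilage, and Chad (-1.16, SE 0.57), chondroadherin. Col2a1 itself had one of the smallest differences, at -0.47 (SE 0.52, adjusted p = 0.852), and its hypertrophic pair stood apart at -1.28. Hapln1, the link protein that fastens aggrecan to hyaluronan, was at -0.43 (SE 0.42). Ucma, a protein of resting and upper columnar cartilage, was lower in 3 zones and differed by 0.23 in the hypertrophic zone (mean -0.93, SE 0.37).

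**Figure D1:**
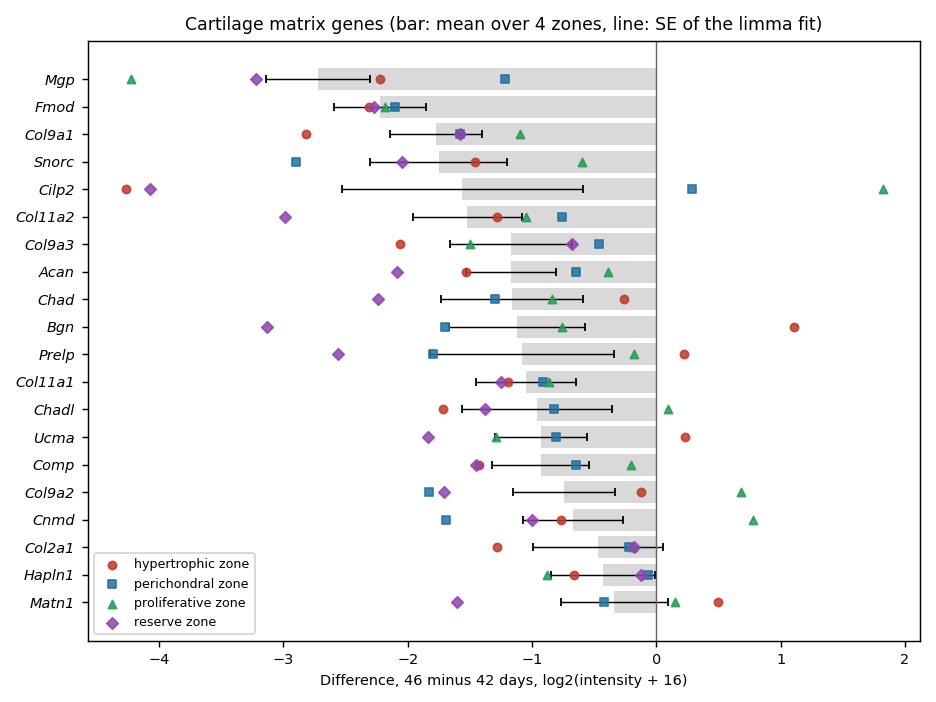
Differences between 46 and 42 days of the 20 measured cartilage matrix genes, on the log2(intensity + 16) scale. Bars give the mean over the 4 zones, lines the SE of the limma fit and points the 4 zones; all 20 bars lie below 0, from -2.72 for Mgp to -0.34 for Matn1, and the reserve zone lies below 0 for every gene.

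Most genes that process collagen had a lower mean at 46 days. Of 19 measured collagen chaperone and hydroxylase genes 14 had a lower mean at 46 days and 5 were lower in all 4 zones, where all genes gave 53.5% and 9.28%. The median was -0.85, between -1.68 in the reserve and -0.15 in the proliferative zone, and without the reserve pair it was -0.27. With the Gapdh covariate 10 of 19 had a lower mean and the median was -0.35. P4ha1, a catalytic subunit of prolyl 4-hydroxylase, which stabilises the collagen triple helix, read 10.91, 11.32, 11.58 and 11.38 at 42 days and 9.51, 10.84, 8.76 and 9.62 at 46 days. Every 46-day level was below every 42-day level (mean -1.62, SE 0.42, 3.06-fold lower, adjusted p = 0.255).

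The other subunit of that enzyme, P4hb, read 8.15, 10.75, 10.60 and 11.84 and then 5.66, 9.56, 8.96 and 10.16, lower in all 4 zones (-1.74, SE 0.46, adjusted p = 0.27). P4ha2, the second catalytic subunit, had non-overlapping ages at -1.41 (SE 0.62), on dim values. Fkbp10, a collagen chaperone of the endoplasmic reticulum, was at -1.89 (SE 0.53) and Loxl3, a lysyl oxidase relative that cross-links collagen, at -1.82 (SE 0.68), both lower in all 4 zones. None of these passed the threshold.

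Sulphate supply and glycosaminoglycan synthesis showed a mixed picture. Of 26 measured genes 17 had a lower mean and 5 were lower in all 4 zones, beside 53.5% and 9.28% of all genes. The list's median was -0.53. Papss2, which makes the sulphate donor for aggrecan chains and whose loss causes a skeletal dysplasia, read 12.93, 15.26, 13.40 and 15.49 at 42 days and 10.11, 11.65, 13.35 and 13.18 at 46 days. The proliferative zone was nearly level at -0.05, while the other zones differed by over 2 (mean -2.20, SE 0.45, 4.59-fold lower, adjusted p = 0.118). Csgalnact1, which starts chondroitin chains, was lower in all 4 zones (-1.09, SE 0.37). Chsy3, a chondroitin synthase, lay the other way at 2.14 (SE 0.74) with higher levels in 3 zones, and Ext1, which builds heparan sulphate, was at 1.15 (SE 0.54).

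Folding and export genes of the endoplasmic reticulum gave 19 lower of 28 and 5 lower in all 4 zones. All genes gave 53.5% and 9.28%. The list's median was -0.29. Dnajc3, a co-chaperone of the stress response in that compartment, read 11.81, 13.02, 14.46 and 11.96 at 42 days and 9.96, 11.30, 9.48 and 10.76 at 46 days. The ages did not overlap (mean -2.44, SE 0.48, adjusted p = 0.112). Manf, a secreted stress-response protein, was lower in all 4 zones (-1.56, SE 0.61), as was the chaperone Canx (-1.13, SE 0.37), whose 2 further probe sets were higher at 1.03 and 0.79, while Hspa5 was lower in 3 zones (-1.26, SE 0.53).

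The list of juvenile growth genes, which also holds restrainers of growth such as Cdkn1c and Grb10, had no common direction. Of 18 measured genes of that list 7 had a lower and 11 a higher mean. In all 4 zones 6 were lower and 2 higher, beside 9.28% and 7.32% of all genes. The median was 0.10, which turned to -0.20 with median-centred arrays and to -0.43 without the hypertrophic pair, so the list has no settled direction. By zone the median was -0.04, -0.55, -0.52 and -0.21, all below 0, so the median of the means and the zone medians differ in sign. Plagl1, Cdkn1c, H19 and Grb10, all imprinted, and Igf2bp3, which encodes an RNA-binding protein, were the lower members with means above the other-organ level at both ages.

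Plagl1, an imprinted zinc finger factor that steers other imprinted growth genes, read 14.33, 14.11, 14.01 and 13.52 at 42 days and 10.51, 12.48, 12.15 and 12.16 at 46 days. Every 46-day level was below every 42-day level (13.99 ± 0.34 against 11.83 ± 0.89, SD, n = 4; difference -2.16, SE 0.40, 4.48-fold lower, adjusted p = 0.0823 with limma). Cdkn1c, the cyclin-dependent kinase inhibitor p57, which restrains division and is needed for chondrocyte maturation, read 14.19, 14.52, 13.61 and 14.02 and then 9.73, 13.07, 12.76 and 12.31. Its ages did not overlap either, with the hypertrophic zone the furthest apart (-2.12, SE 0.46, 4.34-fold lower, adjusted p = 0.124). H19, an imprinted noncoding RNA made beside Igf2, read 8.66, 15.49, 11.29 and 15.91 and then 8.11, 12.94, 10.45 and 10.97. It was lower in all 4 zones (-2.22, SE 0.52, adjusted p = 0.194), but its reserve pair carried much of this: without it the mean was -1.31, and with the Gapdh covariate it was -0.05.

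Other imprinted genes of the list were dimmer or closer. Grb10, an adaptor that damps insulin and IGF receptors, was lower in all 4 zones by a small amount (-0.58, SE 0.33), and both further probe sets had the same sign. Igf2bp3 was at -1.09 (SE 0.50) and lower in 3 zones, at -0.54 without the hypertrophic pair and -1.65 without the reserve pair, and 1 of its 2 further probe sets had the opposite sign (1.42). Meg3 (-1.28, SE 0.68), level in the hypertrophic zone, and Dlk1 (-1.22, SE 0.83) were lower in the other zones or in all 4, both with means below the other-organ level. Igf2 itself was dim, reading 6.91, 7.81, 8.73 and 4.74 at 42 days and 8.60, 7.85, 8.78 and 4.79 at 46 days. Outside the hypertrophic zone, where it differed by 1.70, its levels were almost the same (mean 0.46, SE 0.83).

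**Figure D2:**
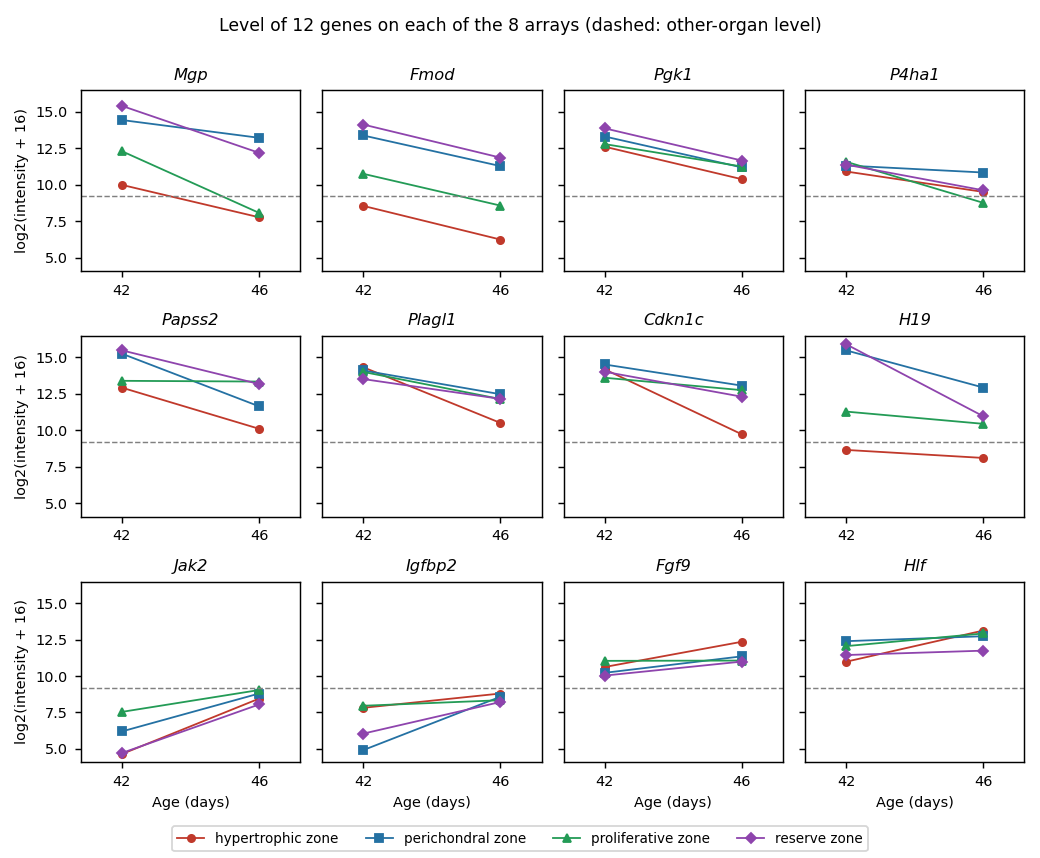
Level of 12 genes on each of the 8 arrays, on the log2(intensity + 16) scale, with lines joining the 42-day and the 46-day array of a zone and a dashed line at the other-organ level of 9.21. Mgp, Fmod, Pgk1, P4ha1, Papss2, Plagl1, Cdkn1c and H19 are lower at 46 days in every zone and Jak2, Igfbp2, Fgf9 and Hlf higher, with Jak2 and Igfbp2 below the dashed line on all arrays.

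The growth hormone and IGF list had 16 of 25 genes with a higher mean and 9 with a lower one. In all 4 zones 4 were higher and none was lower, beside 7.32% and 9.28% of all genes. Of the 25, 7 were above the other-organ level, and the median was 0.17, or 0.06 with median-centred arrays. Jak2, the kinase that growth hormone receptors act through, read 4.65, 6.20, 7.54 and 4.72 at 42 days and 8.45, 8.80, 9.04 and 8.05 at 46 days. The ages did not overlap (2.81, SE 0.84, adjusted p = 0.375), but every level lay below the other-organ level, so the size rests on dim values. Igfbp2, an IGF binding protein, was dim as well (1.79, SE 0.82), with 42-day levels from 4.92 to 7.96 and 46-day levels from 8.22 to 8.80.

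Brighter members of the IGF system differed less. Socs2, a growth hormone target that damps its receptor, was at 1.08 (SE 0.45) and higher in 3 zones. Igf1r, the IGF receptor, was higher in all 4 zones by 0.49 (SE 0.41), nearly all of it in the proliferative zone. Igf1 differed by 0.17 (SE 0.46) with 2 zones in each direction, and by -0.01 with median-centred arrays. Ghr, the growth hormone receptor, was at -0.25 (SE 0.83) on dim values.

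Local signals of the plate had genes on both sides. In the FGF list, with 9 of 18 genes lower, Fgf9, a ligand of the cartilage receptor, read 10.62, 10.22, 11.04 and 10.03 and then 12.35, 11.35, 11.06 and 10.99. It was higher in all 4 zones, though level in the proliferative zone (0.96, SE 0.38, adjusted p = 0.522), and its dimmer second probe set was at -0.18. Fgfr3, the receptor that restrains chondrocyte division, was level at -0.06 (SE 0.35) with 2 zones in each direction. Fgfrl1, a receptor relative without a kinase, was lower in all 4 zones with no overlap (-1.61, SE 0.69), below the other-organ level at both ages on average.

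BMP genes lay in both directions. Of 23 measured genes 15 had a lower mean, and 3 were lower and 2 higher in all 4 zones. All genes gave 53.5%, 9.28% and 7.32%, and counts this small give the list no direction of its own. The traps of BMP ligands themselves differed. Of these ligands and traps, Bmp2 was higher in all 4 zones (0.99, SE 0.43) and so was Fst, follistatin, a trap of activins and BMPs, at 9.88, 10.84, 11.68 and 9.52 and then 11.90, 11.63, 11.85 and 10.69 (1.04, SE 0.38, adjusted p = 0.498). Nog, noggin, a BMP trap, was at -1.65 (SE 0.47) and lower in 3 zones, and Grem1, gremlin, another trap, was lower in all 4 zones at -2.58 (SE 0.90) with means below the other-organ level. Id2, a nuclear target of BMP signalling, read 9.39, 12.99, 12.55 and 11.29 and then 7.84, 11.90, 9.53 and 10.21, lower in all 4 zones (-1.68, SE 0.41, adjusted p = 0.204), while its dimmer second probe set had the opposite sign at 0.76.

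The Ihh and PTHrP axis could hardly be read on these arrays. Of 12 measured genes 2 had a mean above the other-organ level. Ihh, made by prehypertrophic cells, was dim at 9.03, 5.18, 7.34 and 5.62 and then 6.98, 5.99, 5.14 and 5.72 (-0.83, SE 0.82). Pth1r, the PTHrP receptor, was level at -0.12 (SE 0.50). In the Wnt list, with 15 of 25 genes lower, Ctnnb1, beta-catenin, was lower in the hypertrophic and proliferative zones and level in the others (-0.71, SE 0.45). In the TGF-beta list, with 11 of 15 lower, Tgfbi, a matrix protein induced by TGF-beta, was lower in all 4 zones (-1.53, SE 0.40, adjusted p = 0.267). Of all genes 53.5% had a lower mean.

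Receptors of systemic hormones were level or dim. Thrb, a thyroid hormone receptor, was lower in all 4 zones by only 0.07 to 0.37 (mean -0.18, SE 0.33). Esr1, the oestrogen receptor, was higher in all 4 zones (0.51, SE 0.74) and Gper1, a membrane receptor for oestrogen, too, with no overlap (0.99, SE 0.65). Both had means below the other-organ level at both ages. Clock-controlled genes included Hlf, a transcription factor of the clock's output, at 10.98, 12.39, 12.05 and 11.44 and then 13.12, 12.73, 12.92 and 11.74. Hlf was higher in all 4 zones (0.91, SE 0.37, adjusted p = 0.531), as was Per3 (0.57, SE 0.37), each with a further probe set of the opposite sign, while 10 of 18 clock genes had a higher mean. The sources used here give no hour at which tissue was taken.

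Genes of the response to low oxygen were mostly lower. The inner growth plate has no vessels, and Hif1a, the factor that oxygen-starved cells stabilise, is needed for chondrocyte survival there. Of 18 measured genes of that list 14 had a lower mean and 5 were lower in all 4 zones. All genes gave 53.5% and 9.28%. The list's median was -0.74, which ran from -0.81 to -0.43 with a pair left out. It was -0.35 with all probe sets of a gene averaged. Hif1a read 10.83, 12.38, 11.45 and 11 at 42 days and 9.95, 10.90, 9.97 and 10.96 at 46 days (-0.97, SE 0.38, adjusted p = 0.517). Ddit4, an inhibitor of mTOR that low oxygen induces, read 11.07, 10.16, 8.78 and 9.66 and then 8.55, 8.79, 4.48 and 9.39, lower in all 4 zones (-2.12, SE 0.63, adjusted p = 0.374).

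Vegfa, which draws vessels into hypertrophic cartilage, read 10.32, 10.06, 10.01 and 11.52 and then 8.24, 9.95, 9.42 and 7.80. The ages did not overlap (-1.62, SE 0.54, adjusted p = 0.447), yet the perichondral pair was nearly level and the mean was 0.06 with the Gapdh covariate. P4ha1, given above with the collagen enzymes, is in this list as well.

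Pgk1, phosphoglycerate kinase, an enzyme of glycolysis and a classical target of Hif1a, read 12.61, 13.31, 12.79 and 13.87 at 42 days and 10.38, 11.19, 11.25 and 11.66 at 46 days. Every 46-day level was below every 42-day level, and the 4 zones differed by similar amounts, from -2.23 to -1.54 (13.14 ± 0.57 against 11.12 ± 0.53, SD, n = 4; difference -2.03, SE 0.33, 4.07-fold lower, adjusted p = 0.0693 with limma). Of the 2 further Pgk1 probe sets one was at -2.37 and the dimmer one at 0.80. In the glycolysis list as a whole 18 of 21 genes had a lower mean and 3 were lower in all 4 zones, beside 53.5% and 9.28% of all genes. The list's median was -0.28, or -0.08 without the reserve pair and 0.31 with the Gapdh covariate. By zone its median was 0.04, -0.61, 0.13 and -1.31, with 10, 13, 9 and 18 of the 21 genes lower. Pgam1, phosphoglycerate mutase, was lower in all 4 zones (-1.33, SE 0.36, adjusted p = 0.273). Eno2, an enolase, was lower with no overlap (-1.14, SE 0.49), but was at -0.09 with the Gapdh covariate.

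The promoters of 3 of these genes were searched for ACGTG, a form of the core that factors of the hypoxia response bind. It is called the core below, and the form GCGTG was not searched or counted. The core was searched on both strands in the 250 bases before each gene's start, in the RefSeq promoters of GRCr8, and stands in capitals where found, also where both strands overlap. Lines run 5′ to 3′ on the strand of the gene and end at its start.
Ddit4, chr20:28437038-28437287, minus strand: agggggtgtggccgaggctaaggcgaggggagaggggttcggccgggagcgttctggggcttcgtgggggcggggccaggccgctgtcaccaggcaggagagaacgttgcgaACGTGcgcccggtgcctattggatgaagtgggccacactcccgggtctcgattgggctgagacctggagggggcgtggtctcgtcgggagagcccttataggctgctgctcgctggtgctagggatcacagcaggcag
Hif1a, chr6:98359648-98359897, plus strand: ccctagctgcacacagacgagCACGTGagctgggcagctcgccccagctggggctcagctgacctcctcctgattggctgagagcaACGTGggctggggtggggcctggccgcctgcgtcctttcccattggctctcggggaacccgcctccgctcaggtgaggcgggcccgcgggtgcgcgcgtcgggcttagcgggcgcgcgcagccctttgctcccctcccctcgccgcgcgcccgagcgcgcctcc
P4ha1, chr20:27844796-27845045, plus strand: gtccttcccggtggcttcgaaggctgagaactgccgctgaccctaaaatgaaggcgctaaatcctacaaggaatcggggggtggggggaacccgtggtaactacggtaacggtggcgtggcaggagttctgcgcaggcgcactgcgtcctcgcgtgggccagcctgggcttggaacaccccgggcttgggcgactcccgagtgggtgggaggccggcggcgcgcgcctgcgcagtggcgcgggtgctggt

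Ddit4 has 1 ACGTG core and Hif1a has 3 (an overlapping pair at position -229 from the start and 1 at -164). P4ha1 has no ACGTG in this window, and its GCGTG stretches were not counted. All 3 genes were lower at 46 days in every zone. Of the 18 hypoxia genes measured, 16 matched a promoter and 6 of those hold the core. Among all 33469 promoter windows of this length 16.6% hold it. That share is counted per window, whether or not its gene is on the arrays, and the list shares per gene, so they are not counted alike. In other lists the core is held by 9 of 19 matched glycolysis genes (47.4%) and 5 of 12 juvenile growth genes (41.7%). It is held by 3 of 15 collagen chaperone genes and 1 of 12 cartilage matrix genes, against 37.5% in the hypoxia list. The glycolysis and hypoxia lists share Slc2a1 and Pdk1, so the glycolysis share is not an independent comparison. A match describes the letters only, and a window without one says nothing about the factor.

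Markers of the stages of chondrocyte life differed from one another. Of 13 measured resting chondrocyte genes 11 had a lower mean, beside 53.5% of all genes, with a median of -0.75. That median was -0.06 with the Gapdh covariate and -0.37 with all probe sets of a gene averaged. In all 4 zones 4 of the list were lower, beside 9.28% of all genes. Besides Fmod these were Foxa2, Sfrp5 and Cd200. Foxa2, a forkhead factor of chondrocyte maturation, read 10.32, 9.49, 9.87 and 8.57 and then 9.16, 6.13, 5.96 and 7.25 (-2.44, SE 0.68, adjusted p = 0.303). Foxa2 was highest on the hypertrophic array at both ages, so it did not mark resting cells here. Sfrp5, a Wnt inhibitor, was at -1.79 (SE 0.84) and Cd200 at -1.31 (SE 0.81), with a dim second Cd200 probe set at 1.67. Of 20 hypertrophic genes 16 had a lower mean, beside 53.5% of all genes. Their median was -0.93 in the hypertrophic zone and near 0 in the others. Col10a1 was at -1.03 (SE 0.37, adjusted p = 0.486), and Mmp13, the collagenase of the last hypertrophic cells, was at -0.76 (SE 0.39) with most of it in the perichondral zone. Ibsp, bone sialoprotein, was at -1.73 (SE 0.59) and lower in 3 zones, and Spp1, osteopontin, was level at -0.02 (SE 0.53) on a dim probe set, and at 0.16 with the deposited values.

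Cell division genes showed no shared direction. Of 39 measured genes 18 had a lower and 21 a higher mean. In all 4 zones none was lower and 2 were higher, beside 9.28% and 7.32% of all genes. The median of 0.11 turned to -0.12 with median-centred arrays, and by zone it was -0.06 in the hypertrophic, 0.08 in the perichondral, -0.20 in the proliferative and 0.79 in the reserve zone. Without the reserve pair it was -0.16. Mki67, a marker of cycling cells, read 14.02, 12.22, 12.84 and 12.83 and then 12.84, 12.51, 13.04 and 13.94 (0.11, SE 0.38), and its sign turned with the deposited values (-0.35) and with median-centred arrays (-0.59). Ccnd1, the cyclin that growth factors induce, was higher in all 4 zones (0.90, SE 0.52), mainly in the hypertrophic zone, but both further probe sets had the opposite sign (-0.73 and -0.55). Dtl, a factor of licensing control in the S phase, was higher in all 4 zones with no overlap, at 8.73, 8.66, 8.39 and 8.34 and then 9.76, 9.90, 9.43 and 9.74 (1.18, SE 0.49, adjusted p = 0.547).

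Transcripts of other tissues differed between the ages too, most of all in the hypertrophic pair. Of 25 leukocyte and marrow genes, 12 were above the other-organ level on the 42-day hypertrophic array and 1 on the 46-day one. The list's summed level (log2 of summed intensity) ran from 11.9 to 15.6 at 42 days and from 12 to 15.6 at 46 days. It was highest on the reserve array at both ages, and in the hypertrophic pair it was 14.7 and then 12.5. Lyz2, the lysozyme of myeloid cells, read 13.35, 10.62, 9.90 and 12.54 and then 5.90, 6.07, 5.18 and 13.30, lower in every zone but the reserve zone (-3.99, SE 0.81, adjusted p = 0.118). S100a8, a neutrophil protein, differed by -6.08, -4.71, -0.23 and 0.05 (mean -2.74, SE 0.85), so its proliferative and reserve pairs were nearly level. Over the whole list 16 genes had a lower and 9 a higher mean, where 53.5% of all genes had a lower one. The list's median was -0.42, or -0.03 without the hypertrophic pair. In the proliferative zone it was 1.02, with 7 of 25 genes lower.

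Bone and blood lists differed in the same pair. The bone list's summed level was 17.1 and then 13.5 in the hypertrophic zone, while it ran from 13.4 to 17.1 at 42 days and from 12.2 to 16.5 at 46 days over all zones, with a median difference of -2.30 in the hypertrophic zone and 0.56 in the reserve zone. The erythroid list stood at 14.1 and then 12.1 in the hypertrophic pair, at a median difference of -1.54, against 14.7 and 15.7 in the reserve pair. It ran from 11.8 to 14.7 at 42 days and from 12.1 to 15.7 at 46 days. The part of these cells in the hypertrophic results was not tested. Of the 20 cartilage matrix genes, 20 had a lower mean without the hypertrophic, the perichondral or the proliferative pair and 19 without the reserve pair. These counts do not test the make-up of cells, which can differ in the pairs that remain.

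Fibrous connective tissue genes were lower at 46 days as well. Of 34 measured genes 24 had a lower mean and 7 were lower in all 4 zones, beside 53.5% and 9.28% of all genes. The median of the fibrous genes was -0.58, or -0.32 without the hypertrophic pair. Their summed level ran from 15.6 to 18.1 at 42 days and from 14.9 to 17.7 at 46 days and was lower at 46 days in each zone. Col1a1, the main collagen of bone and fibrous tissue, read 16.09, 15.41, 10.12 and 15.80 and then 11.33, 13.03, 9.24 and 15.66 (-2.04, SE 0.52, adjusted p = 0.246), with the reserve pair nearly level. Sparc, a collagen-binding matrix protein, read 14.04, 16.21, 13.86 and 16.67 and then 11.27, 14.83, 13.46 and 14.20 (-1.76, SE 0.41, adjusted p = 0.194), and its second probe set had the same sign (-1.75). Ogn (-1.36, SE 0.39) and Col6a1 (-1.15, SE 0.40) were also lower in all 4 zones.

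Of the 27 matrix protease and inhibitor genes measured 16 had a lower mean, a share near the 53.5% of all genes. Timp2, an inhibitor of matrix metalloproteases, read 8.85, 10.95, 9.42 and 11.90 and then 8.29, 6.69, 8.38 and 9.47 (-2.08, SE 0.58, adjusted p = 0.302), lower in all 4 zones. Timp1, a related inhibitor, was lower with no overlap (-2.50, SE 0.81) on levels below the other-organ level.

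**Figure D3:**
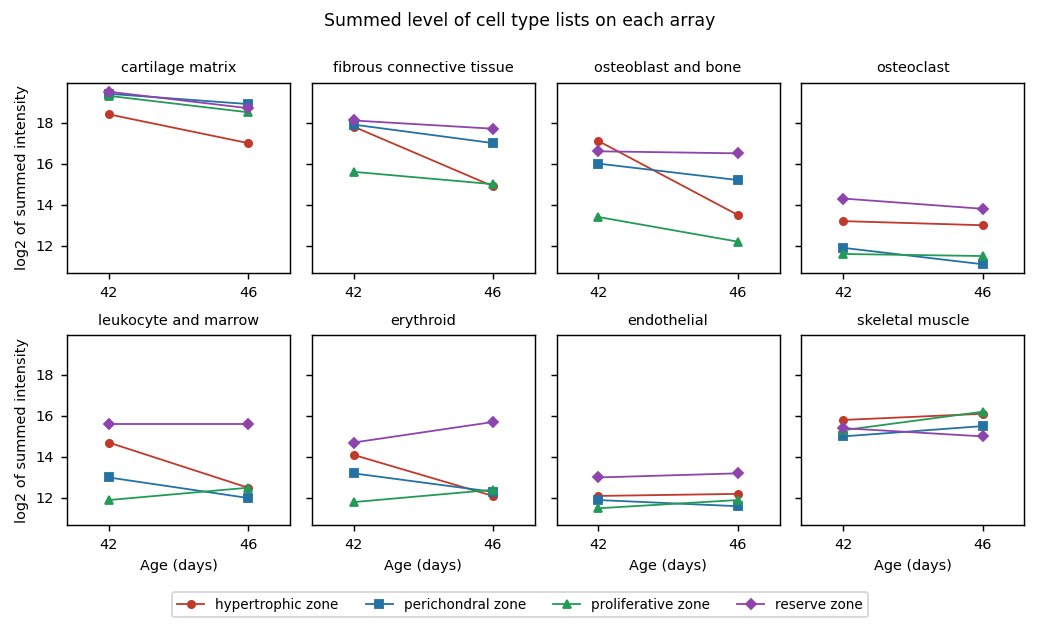
Summed level (log2 of summed intensity) of 8 gene lists on each of the 8 arrays, with lines joining the 42-day and the 46-day array of a zone. The cartilage and fibrous lists are lower at 46 days in each zone, and the bone, leukocyte and erythroid lists differ most in the hypertrophic pair, where the bone list stands at 17.1 and 13.5.

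Genes with a sizeable difference in every zone were chosen by the size of their smallest within-zone difference, so these values are a description. Among the 12 lower ones, Gpr108, a membrane protein of the secretory pathway, read 10.68, 10.20, 10.30 and 10.82 at 42 days and 7.47, 7.03, 5.16 and 8.64 at 46 days (10.7-fold lower, adjusted p = 0.0693 with limma). Nfat5, a transcription factor that answers osmotic load, a condition of cartilage matrix, read 11.28, 10.98, 11.14 and 12.58 and then 8.02, 9.43, 7.75 and 10.34 (-2.61, SE 0.43, 6.11-fold lower, adjusted p = 0.0693). Its second, dimmer probe set was at 0.53. Rbp4, a carrier of retinol, was lower by 2.16 or more in each zone (-3.07, SE 0.59, adjusted p = 0.0927). Cops9, a small subunit of the COP9 signalosome, had the largest mean of the group (-4.07, SE 0.71, adjusted p = 0.0693), with a range from -7.84 in the hypertrophic to -1.55 in the reserve zone.

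The other lower genes of this kind were Cyp20a1, Osbpl1a, Slc44a2, Noc2l, Thoc2, Slc25a39 and Stk10, with mean differences from -3.20 to -2.30. Of these, Thoc2 had 3 further probe sets, 1 of them lower, and Slc25a39 had 1, which was higher at 1.06. Cyp20a1 read 11.41, 11.87, 11.23 and 11.91 and then 8.29, 9.81, 8.89 and 10.25, with no overlap between the ages. Rbp4 and Fmod were the only ones of the 12 whose ages overlapped.

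Higher genes of this kind differed less. Ppargc1a, a coactivator that raises mitochondrial gene transcription, read 9.49, 9.63, 9.33 and 8.20 and then 10.66, 10.78, 10.52 and 9.98, higher by 1.15 to 1.78 in each zone (1.32, SE 0.42, adjusted p = 0.441). Both further Ppargc1a probe sets were higher too, at 0.55 and 0.79. Of the 76 genes of oxidative phosphorylation 34 had a higher and 42 a lower mean, with a median of -0.12. A link between them and Ppargc1a was not tested. Elovl6, which lengthens fatty acids, was higher by 1.10 or more in each zone (1.15, SE 0.44), and Acvr1c, an activin receptor, was at 2.86 (SE 0.71) from 42-day levels below the other-organ level.

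LOC102548331, an uncharacterised gene, read 10.10, 10.15, 10.08 and 10.09 and then 12.36, 11.68, 12.51 and 11.72, with almost no spread at 42 days (1.96, SE 0.36, adjusted p = 0.0823). The remaining 8 were Ermn, Ccdc107, Dtl, Cldn18, Taf3, C10h5orf15, Tdrd7 and Cyp2c11, with means from 1.05 to 3.24. Ermn, Cldn18 and Cyp2c11 are known from the myelin of the brain, from stomach and lung and from liver. A further probe set had the opposite sign for Ermn (-0.06), Cldn18 (-1.67), Ccdc107 (-0.31), Taf3 (-0.36) and Tdrd7 (-0.16).

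**Figure D4:**
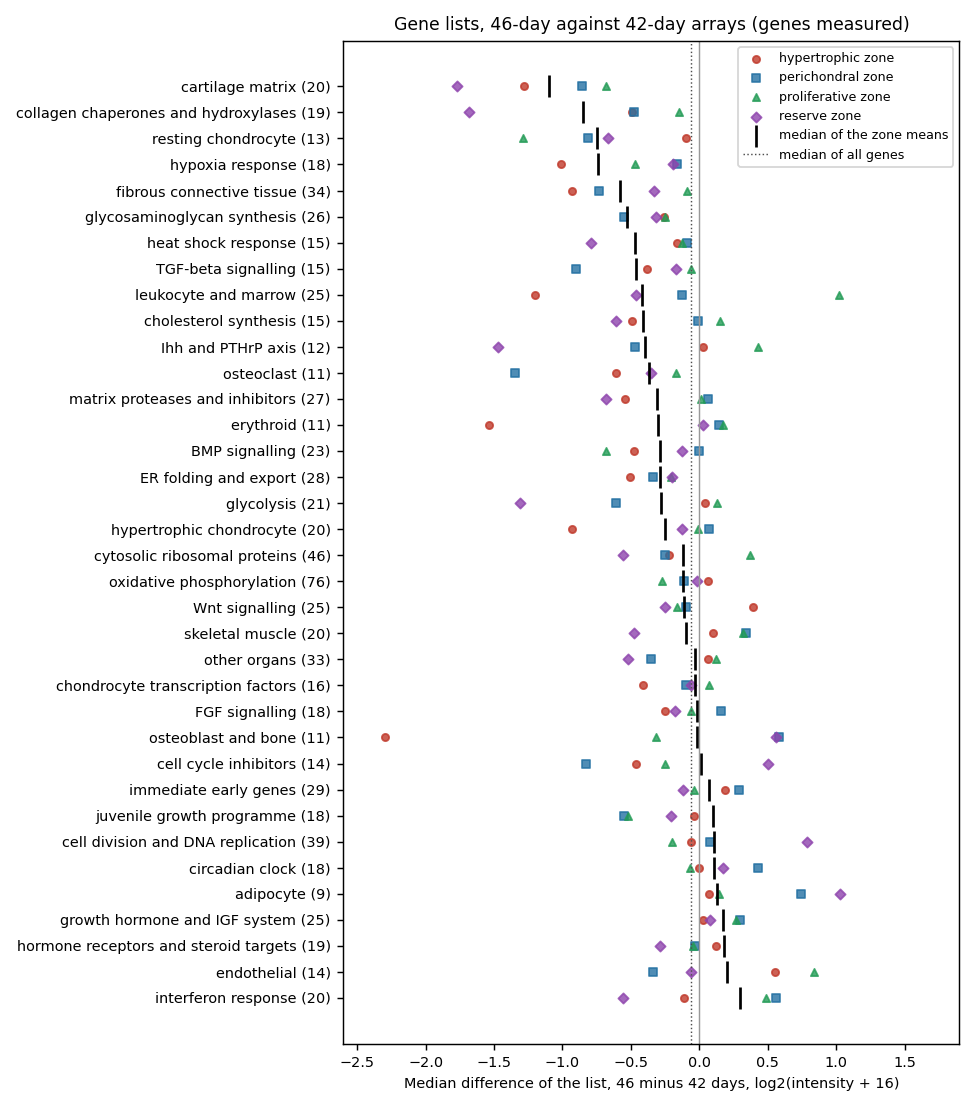
Median difference between 46 and 42 days of each of the 36 gene lists on the log2(intensity + 16) scale, with the number of genes measured in brackets. Black ticks give the median over genes of the mean of 4 zones, points the median in each zone and the dotted line the median of all genes at -0.06; the cartilage matrix list is lowest at -1.10 with all 4 zones below 0.

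Leaving out 1 zone's pair moved the mean difference by over 1.5 times, or turned its sign, in 37 of 103 named genes, and the hypertrophic pair did so in 20 of them. Without the hypertrophic pair Col1a1 was at -1.13, Cdkn1c at -1.34, Fkbp10 at -1.18, Manf at -0.78, Hspa5 at -0.44, Cd200 at -0.49, S100a8 at -1.63, Col2a1 at -0.20, Hlf at 0.50, Ccnd1 at 0.38 and Ext1 at 0.30. Without the proliferative pair Dnajc3 was at -1.59, Ddit4 at -1.39, Ibsp at -0.85, Csgalnact1 at -0.72, Ctnnb1 at -0.36, Hapln1 at -0.28 and Igf1r at 0.13. Without the reserve pair Vegfa was at -0.92, Eno2 at -0.71, Ucma at -0.62, Thrb at -0.11 and Tdrd7 at 1.03. Without the perichondral pair Timp2 was at -1.35, Mmp13 at -0.25, Socs2 at 0.59 and Igfbp2 at 1.17. All of these kept their sign.

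Within a zone there is 1 array per age, so differences have no replicate check and no test. Among genes whose brighter array was above the other-organ level, those past 2-fold were 20.8% higher and 30.7% lower in the hypertrophic zone, 13.5% and 20.8% in the perichondral, 19.5% and 25.3% in the proliferative and 14.1% and 19.5% in the reserve zone. The SD of the differences was 1.70, 1.21, 1.55 and 1.20 in the same order. In each zone more genes were past 2-fold lower than higher, and the hypertrophic and proliferative pairs differed more than the other pairs.

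Several of the genes with the widest gap in a zone had far smaller differences in the other zones. In the hypertrophic zone Klhl2 went from 11.95 to 4.51 (-7.44) and differed by -0.26, -0.25 and 0.88 in the perichondral, proliferative and reserve zones. In the perichondral zone Ss18l2 went from 10.07 to 4.68 (-5.39), with differences from -0.80 to 0.45 elsewhere. In the proliferative zone Mxi1, an antagonist of Myc, went from 4.74 to 10.07 (5.33) and differed by -0.02, 0.03 and 0.18 elsewhere. C1qtnf3, a secreted protein of cartilage also called cartducin, went from 15.80 to 9.66 in the proliferative zone (-6.14), with 1.85 in the hypertrophic, -0.49 in the perichondral and -0.84 in the reserve zone. In the reserve zone Gnb3 went from 10.92 to 5.63 (-5.29), with differences from -1.69 to -1.03 elsewhere. Ctnnd2 was higher in both the hypertrophic (5.49) and the proliferative zone (6.08), by 0.84 in the perichondral and by 0.76 in the reserve zone.

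The age differences of the zones were weakly related across genes. Over the 3472 genes above the other-organ level, the correlation of the age difference was 0.334 between the hypertrophic and proliferative zones and 0.295 between the perichondral and reserve zones. It was 0.224 for hypertrophic and perichondral, 0.158 for perichondral and proliferative, 0.0539 for hypertrophic and reserve and 0.0356 for proliferative and reserve. These are descriptions across genes measured on the same arrays. Whether a gene's age difference depends on the zone could not be tested, since 1 array per zone and age leaves no residual degree of freedom.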

How the data were processed

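The authors deposited 1 intensity per probe set and array, on a linear scale, for 31099 probe sets and 8 arrays. MAS5, GCOS and RMA are listed in the submitters' processing notes with no role for any of them, and the trimmed mean is near 500 on every array. No genome build for the arrays is given in the sources used here. For this report 57 control probe sets were left out, 16 was added to the deposited intensity, and the log2 values were quantile normalized, leaving 31042 probe sets. Age was tested with limma 3.58.1 (R 4.3.3) with zone as a block, a variance trend and Benjamini-Hochberg adjustment over all probe sets, which leaves 3 residual and 15.8 prior degrees of freedom. The zone in the labels pairs the arrays.

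Of the probe sets, 20826 had 1 gene symbol, 436 several and 9780 none, and the brightest probe set stood for each of 14217 genes. Symbols were taken through the gene identifier for 20764 probe sets. Named genes were up to 12 in each direction past the threshold, filled, since none passed, by the size of the smallest within-zone difference among genes above the other-organ level. They also include, per list, up to 4 with the largest mean difference and any with 4 of 4 zones in 1 direction, a set of growth plate genes in any case, and up to 5 in each direction per zone. Members and lists were chosen with earlier results of these data known. Alternatives were other scalings, pseudocounts of 1 and 64, filters on dim probe sets, other models of zone and spread, the Gapdh ratio as a covariate and each zone's pair left out.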

Additional observations from a re-analysis of the deposited data

Results flagged for a closer look

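In 6 of 74 sets of 4 within-zone differences examined, 1 zone stood apart from the others by Dixon's criterion at the 0.05 level, so chance alone flags about that share of sets. The reserve zone stood apart for Ppargc1a at 1.78, for Tdrd7 at 3.83 and for the median of the heat shock response list at -0.79. The hypertrophic zone stood apart for Col2a1 at -1.28, for Igf2 at 1.70 and for the median of the erythroid list at -1.54.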

How the results depend on the processing

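The number of called probe sets depended on the scaling. Against 0 higher and 0 lower, the deposited values as they stand gave 2 higher and 43 lower, and median-centred arrays 3 higher and 137 lower. A pseudocount of 64 gave 5 lower, and the Gapdh covariate gave 1 lower. With a zone's pair left out, 0 to 1 were higher and 0 to 22 lower, with 22 lower without the reserve pair and 4 without the perichondral pair. The fit with no replicate block, so without the pairing by zone, called 0 in each direction, as did zone as a random block (correlation 0.0845). In all 4 zones 2663 probe sets were higher and 2398 lower, against 940 and 632 above the other-organ level and 1652 and 1290 above the median, where fewer probe sets were counted. Of 103 named genes 95 kept their sign under every alternative run. The Gapdh covariate made the mean difference smaller by over 1.5 times in 20 of the 103, among them Eno2 (-0.09), Chsy3 (1.12) and Cldn18 (0.66). Others became larger, such as Lyz2 (-8.06) and Col1a1 (-3.91). With the Gapdh covariate the sign turned for Tdrd7 (-0.03), Vegfa (0.06), Pth1r (0.45), Fgfr3 (0.54), Igf1 (-1.02), Ghr (2.41) and Mki67 (-0.79). With the deposited values it turned for Spp1 (0.16) and Mki67 (-0.35), and with median-centred arrays for Igf1 (-0.01) and Mki67 (-0.59). With a pair left out the difference ran from -0.41 to 0.11 for Pth1r, -0.26 to 0.20 for Fgfr3, -0.22 to 0.27 for Spp1, -0.34 to 0.48 for Igf1, -1.28 to 0.83 for Ghr and -0.23 to 0.54 for Mki67, so their sign turned. The cause was not tested. Counts of cartilage matrix, collagen enzyme and juvenile growth genes stayed within 1.5 times. Signals below the other-organ level limit what can be read of dim genes.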
